A study of Mus musculus with 6 samples.

Results

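The clustered histone genes were examined in the P21 retinae of a mouse model of retinoblastoma. They were taken as the rows of the deposited count table whose symbol begins with Hist1h, Hist2h, Hist3h or Hist4h, the older mouse names of the histone clusters, and whose counts summed to at least 10 over the 6 retinae. The pattern matched 68 of 24062 rows, and 20 of these 68 reached the minimum. The member with the smallest sum was Hist1h4h with 11 counts, and the largest sum below the minimum was 9, for Hist1h1b. By class, the 20 members were 3 of 6 linker histone H1 genes, 5 of 18 H2A genes, 7 of 19 H2B genes, 5 of 13 H4 genes and 0 of 12 H3 genes. The study asked whether loss of HELLS, a chromatin remodeling helicase, changes the early transcriptome of Rb1/p107-deficient retinae. All 6 libraries were whole retinae at postnatal day 21 from mice labelled C57BL/6 (C57BL/6N in the study's methods), 3 of the genotype Chx10-Cre Rb1/p107/Hells (TKO) and 3 of the genotype Chx10-Cre Rb1/p107 (DKO). In the study, DKO stands for Chx10-Cre with floxed Rb1 and null p107 alleles, and TKO for the same with floxed Hells alleles, and mice of both sexes were used. Chx10-Cre acts in retinal progenitor cells and in a mosaic manner, so that a whole retina also holds cells in which no allele was recombined. The labels do not say whether replicate retinae came from separate animals, and p-values measure the spread between these retinae only.

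Clustered histone genes encode the core histones H2A, H2B, H3 and H4, around which DNA is wound, and the linker histone H1, which binds where DNA enters and leaves the nucleosome. Most are replication-dependent: they are transcribed in S phase, and their mRNAs end in a conserved stem-loop bound by SLBP instead of a poly(A) tail. Some of them also give polyadenylated mRNAs that run past the stem-loop to a downstream polyadenylation signal, and such mRNAs are known from differentiated cells. Replication-independent histone genes such as H3f3a or H2afz lie outside the clusters and give polyadenylated mRNAs that are not confined to S phase. The libraries were made with a kit for mRNA that selects poly(A) tails, so the counts are those of polyadenylated transcripts and of what is carried along with them.

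The stem-loops and hexamers of some members are shown first, because they mark the mRNA ends described above. They are those of members with a hexamer, from Hist3h2a with 1983 counts in all to Hist2h4 with 49. For comparison the stem-loops of Hist1h1e (36 counts) and Hist2h2ac (19 counts) are given, whose transcripts end without a hexamer. The sequences are those of GENCODE M21 transcripts on GRCm38, 5′ to 3′, written as DNA, with the stem-loop in capitals.
Hist1h1c: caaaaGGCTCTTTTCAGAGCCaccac
Hist1h1e: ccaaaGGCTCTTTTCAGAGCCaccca
Hist3h2a: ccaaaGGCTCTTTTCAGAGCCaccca
Hist3h2ba: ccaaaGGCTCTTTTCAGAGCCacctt
Hist1h2be: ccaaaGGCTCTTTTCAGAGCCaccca
Hist2h2ac: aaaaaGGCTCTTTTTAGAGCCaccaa
Hist1h4i: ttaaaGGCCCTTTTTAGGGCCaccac
Hist2h4: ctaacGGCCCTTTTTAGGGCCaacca
Downstream of the stem-loop the annotated transcript went on for 840 bases in Hist1h1c, 1643 in Hist3h2a, 169 in Hist3h2ba, 1861 in Hist1h2be and 330 in Hist1h4i, and for 1153 bases in Hist1h1e and 57 in Hist2h2ac. A polyadenylation hexamer, AATAAA or ATTAAA, lay within the last 50 bases in 8 of the 13 members with a stem-loop, which ran 46 to 1861 bases past it, and in none of the other 5, Hist1h1e, Hist1h2ac, Hist1h2bg, Hist1h4d and Hist2h2ac, which ran 57 to 2010 bases past it. The 2 ranges overlap over most of their length. The hexamers of 7 members are given next, in capitals.
Hist3h2a: atatgcccAATAAAataagagt
Hist2h2be: ttattattAATAAAgttaccga
Hist3h2ba: atggtattAATAAAtttggttc
Hist1h1c: atgcttctAATAAAaagcgttt
Hist1h2be: tgttccttATTAAAgcattcct
Hist1h4i: ctgtttacATTAAAagtattct
Hist2h4: atacataaAATAAAatcttaaa
Between the hexamer and the end of the transcript there were 28 bases in Hist3h2a, 16 in Hist2h2be, 21 in Hist3h2ba and 20 in Hist1h1c. Hist2h2be had a hexamer and no stem-loop in its annotated transcript, and Hist1h2bc, whose transcript was spliced from 2 exons, had neither the stem-loop nor a hexamer in its last 50 bases. Each histone gene was searched in a single transcript, the longest protein-coding, or the longest of any kind where none was protein-coding. Other transcripts of a gene could hold these features.

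Counts on the clustered histone genes were few and fell on a handful of rows. The counts of all 68 rows together were 1325, 1508 and 1134 in the 3 TKO retinae and 1015, 1339 and 1458 in the 3 DKO retinae, or 110, 117 and 110 CPM (counts scaled to the library total) against 80.3, 99.5 and 103 CPM. Of these 7779 counts, 7004 (90.0%) fell on Hist3h2a with 1983, Hist1h2bc with 1767, Hist2h2be with 1392, Hist3h2ba with 1262 and Hist1h1c with 600. The other 15 members held 651 counts (8.37%), and the 48 rows under the minimum held 124 (1.59%). Those 48 rows summed to 17, 20 and 15 counts in the TKO retinae and to 23, 20 and 29 in the DKO retinae, and 12 of them were at 0 in every retina, where a count of 0 allows up to 3 counts per library. Per kilobase of the annotated transcript, the mean normalized count was highest for Hist3h2ba at 342, followed by Hist1h2bc at 262, Hist3h2a at 155, Hist2h2be at 88.3 and Hist1h1c at 67.3.

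A hexamer lay in the last 50 bases of the transcript in 4 of these 5 most counted members, in 5 of the other 15 members (33.3%) and in 8 of the 48 rows under the minimum (16.7%), beside 77.9% of 21901 protein-coding genes. The 17 histone rows with a hexamer held 5616 counts, which was 72.2% of all histone counts. A stem-loop was found in 13 of 20 members and in 32 of 48 rows under the minimum, and in 51 of the 21901 protein-coding genes (0.233%). The protein-coding genes were scored over all their protein-coding transcripts and the histone rows on a single transcript each. The shares of these genes and of the histone rows are therefore not measured alike. As shares, the stem-loop was in 65% of members and 66.7% of rows under the minimum, and the hexamer in 45.0% and 16.7%. In 3 members and 10 of the other rows the gene model held no 3′ untranslated region, so that both features could be missed there. In the plot of counts by rank the symbols show which rows had a hexamer.

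**Figure D1:**
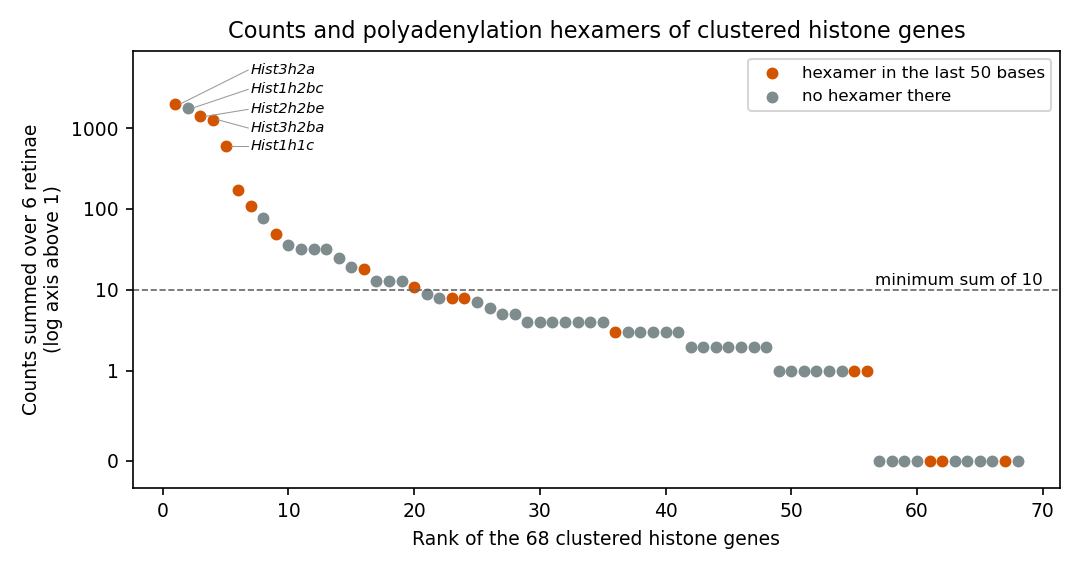
Counts of the 68 clustered histone genes summed over the 6 retinae (vertical axis, logarithmic above 1) against their rank; orange points had an AATAAA or ATTAAA hexamer in the last 50 bases of the annotated transcript, grey points had none, and the dashed line is the minimum sum of 10. The 5 labelled genes held 90.0% of the histone counts, and 48 points lie below the line.

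The library totals ranged from 10343907 to 14203098 counts. Hells was counted at 60.8, 68.4 and 83.4 normalized counts in the TKO retinae and at 678, 523 and 395 in the DKO retinae (log2 fold change -2.91 ± 0.22 SE, adjusted p = 0.00359), as the labels say. Rb1 (log2 fold change 0.34, adjusted p = 0.0388, which passed in 1 of 6 fits with a retina left out) and Rbl1, the gene of p107 (0.13, adjusted p = 0.839), were targeted in both groups. Normalized counts are raw counts brought to the average TMM-scaled library size. All tests are edgeR's quasi-likelihood test with Benjamini-Hochberg adjustment over 16904 genes. A gene was called when 3 criteria were met: the adjusted p was no more than 0.05, the log2 fold change was 1 or more in size, and the normalized counts averaged 10 or more.

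Of the 20 clustered histone genes, 2 passed an adjusted p of at most 0.05 as higher in TKO retinae, Hist1h1c and Hist1h2bc, and 0 as lower, beside 7.35% and 9.20% of all genes tested. Counts this small lie near these shares and are not a result about the members as a group, and each of the 2 genes passed in 3 of the 6 fits that left out a retina. By the 3 criteria 1 member was called higher and 0 lower, beside 6.35% of all genes in either direction (1.97% higher and 4.38% lower). At an unadjusted p under 0.05, 4 members were higher, with Hist1h1e and Hist1h2be added, and 0 lower, beside 15.3% and 17.8% of all genes. DESeq2 also put 2 members higher and 0 lower at an adjusted p of at most 0.05. The retinae of both groups did not overlap in 4 members, all higher in TKO (18.0% of all genes), and in 0 members lower in TKO (20.6%). The median log2 fold change of the members was 0.24, beside -0.011 over all genes, with 13 members above 0 and 7 below. In only 8 members did the normalized counts average 10 or more, and the intervals of the others were wide, as the plot of fold changes shows. When every row with at least 1 count was tested, 56 histone rows entered, with 2 higher and 0 lower at an adjusted p of at most 0.05. In whole retinae, fewer cells of a type and less RNA per cell cannot be told apart.

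**Figure D2:**
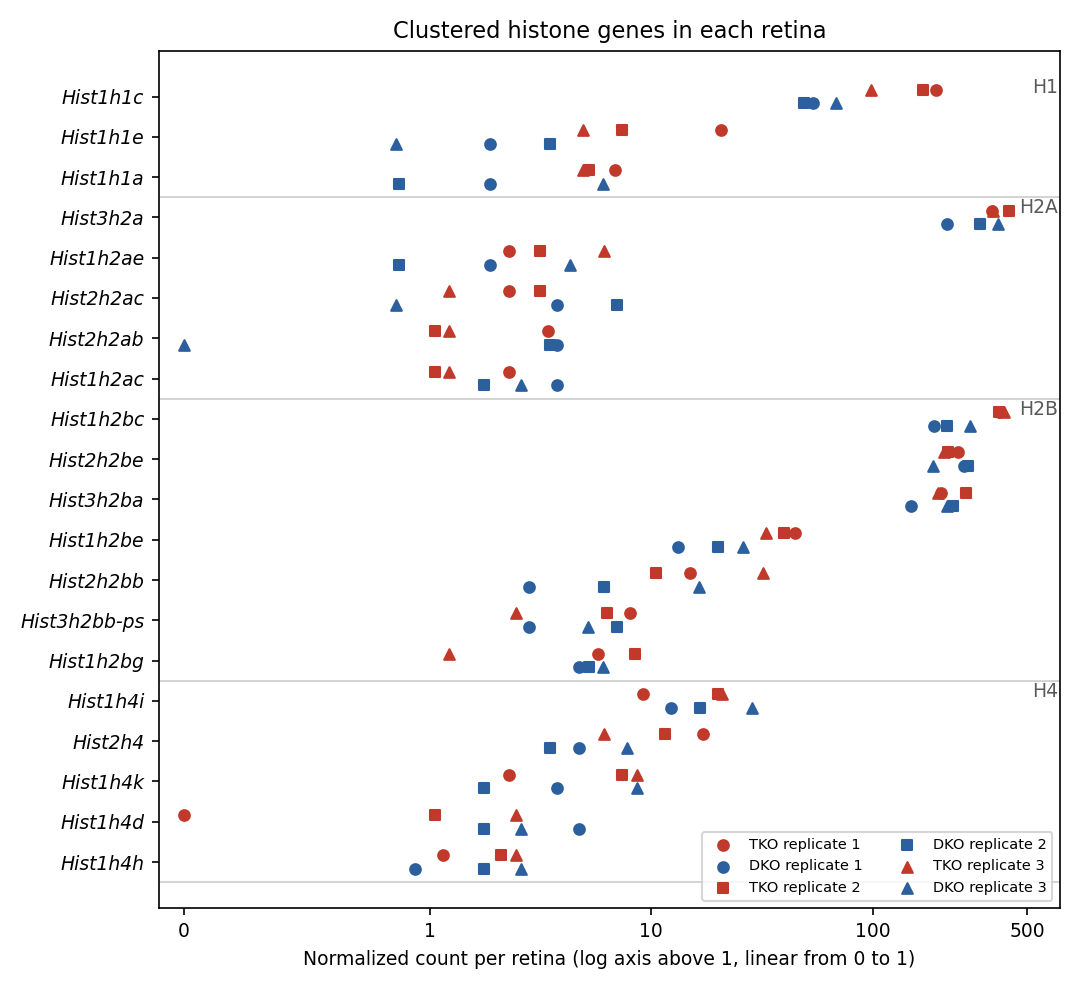
Normalized count (horizontal axis, logarithmic above 1 and linear from 0 to 1) of each of the 20 members in each of the 3 TKO (red) and 3 DKO (blue) retinae, by histone class, with the symbol shape giving the replicate number. Hist1h1c, Hist1h1e, Hist1h2bc and Hist1h2be are the members in which every TKO point lies to the right of every DKO point.

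The 2 largest fold changes were those of linker histone genes. Hist1h1c encodes the H1.2 subtype and lies at chr13:23738808-23740367 on the plus strand (GRCm38), in the Hist1 cluster, as a single exon. Its normalized counts were 193, 168 and 98.2 in the TKO retinae and 53.6, 49.0 and 68.2 in the DKO retinae. The groups did not overlap, and TKO replicate 3 and DKO replicate 3 lay nearest to each other. The mean was 153 ± 49.1 (SD, n = 3) against 57.0 ± 10.0 (SD, n = 3), a log2 fold change of 1.43 ± 0.27 SE with a 95% interval of 0.80 to 2.05 (edgeR, adjusted p = 0.0129). Hist1h1c was the 1 member called by the 3 criteria. Its adjusted p passed the threshold without TKO replicate 1, TKO replicate 3 or DKO replicate 3, and rose to 0.0585 when TKO replicate 2 was left out, 0.0566 when DKO replicate 1 was and 0.0623 when DKO replicate 2 was, while the log2 fold change stayed between 1.23 and 1.67.

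Hist1h1e, which encodes the H1.4 subtype, was counted far less. It had 18, 7 and 4 raw counts in the TKO retinae and 2, 4 and 1 in the DKO retinae. As normalized counts these were 20.6, 7.37 and 4.91 against 1.88, 3.50 and 0.863, and the groups did not overlap, with TKO replicate 1 well above the rest. The log2 fold change was 2.33 with a 95% interval of 0.63 to 4.04 (adjusted p = 0.0662). It was 1.52 (adjusted p = 0.241) without TKO replicate 1, and it passed without TKO replicate 3 (2.67, adjusted p = 0.0357). Its gene, at chr13:23620629-23622558 on the minus strand, overlaps an exon of Hist1h2be on the same strand. Reads there could be given to either or left uncounted, depending on the counting setting. Hist1h1a, the H1.1 gene, had 6, 5 and 4 counts against 2, 1 and 7 (log2 fold change 0.91, adjusted p = 0.391), with overlap in DKO replicate 3. With 1 retina left out its log2 fold change was lowest at 0.49, when DKO replicate 2 was removed, and highest at 1.96, when DKO replicate 3 was. The other 3 H1 rows of the pattern did not reach the minimum. Summed over its 3 members, the H1 class stood at 220.2, 181 and 108 normalized counts in TKO and 57.4, 53.4 and 75.1 in DKO, a ratio of means of 2.74, of which Hist1h1c made up most of the counts in every retina.

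The promoters of these H1 genes are shown because Hist1h1c and Hist1h1e were the only members, of 16 with a promoter window, in which the H1 box was found. The sequences are the 150 bases before the start in RefSeq on GRCm38.p6, 5′ to 3′ on the strand of the gene, with the H1 box (AAACACA), the CCAAT box and the TATA box (TATAAA) in capitals.
Hist1h1c, chr13:23738657-23738806, plus strand: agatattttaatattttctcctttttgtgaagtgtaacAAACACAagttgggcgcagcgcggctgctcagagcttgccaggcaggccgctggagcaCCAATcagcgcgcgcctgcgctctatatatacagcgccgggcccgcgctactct
Hist1h1e, chr13:23622559-23622708, minus strand: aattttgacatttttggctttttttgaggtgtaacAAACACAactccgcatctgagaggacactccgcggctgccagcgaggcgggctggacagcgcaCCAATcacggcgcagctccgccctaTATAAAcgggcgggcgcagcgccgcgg
Hist1h1a, chr13:23763518-23763667, plus strand: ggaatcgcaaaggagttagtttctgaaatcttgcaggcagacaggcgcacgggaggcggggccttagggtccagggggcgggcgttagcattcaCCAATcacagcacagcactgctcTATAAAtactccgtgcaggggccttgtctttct
All 3 held a CCAAT box, and Hist1h1a held no H1 box. A promoter window, from 250 bases before to 50 bases after the start, was on hand for 16 of the 20 members and was searched on both strands. The H1 box occurred in 2 of the 16 (7.18% of 32851 windows), the CCAAT box in 13 (37.4%) and TATAAA in 11 (13.6%). The octamer ATGCAAAT, known from H2B promoters, occurred in 7 (1.74%), none of them an H1 or H4 gene. The E2F letters TTTCCCGC, TTTGGCGC, TTTCGCGC and TTTGCCGC occurred in 0 of the 16 (2.26%). These are matches of letters in the windows and say nothing of binding.

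Among the 7 H2B members, 1 passed as higher and 0 as lower at an adjusted p of at most 0.05, where 7.35% and 9.20% of all genes did. Hist1h2bc was counted at 374, 374 and 390.2 in the TKO retinae and at 190.1, 216 and 275 in the DKO retinae. The TKO retinae lay close together and above all DKO retinae, of which DKO replicate 3 was the highest. The mean was 379 ± 9.53 (SD, n = 3) against 227 ± 43.7 (SD, n = 3), a log2 fold change of 0.74 ± 0.15 SE with a 95% interval of 0.40 to 1.07 (adjusted p = 0.0142), below the fold needed for a call. Leaving out TKO replicate 2, DKO replicate 1 or DKO replicate 2 gave an adjusted p of 0.0590, 0.0521 or 0.0668. Hist1h2bc lies at chr13:23684199-23692908, plus strand, and 25.4% of the 100-base stretches of its transcript also occur in another transcript, against 4.9% in Hist3h2ba and 5.1% in Hist1h1c, so its counts are less certain than theirs.

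Hist1h2be went the same way at a lower level, with 44.7, 40.0 and 33.1 against 13.2, 20.1 and 25.9 normalized counts. It overlaps an exon of Hist1h1e on the same strand, so its counts are less certain. The groups did not overlap, and the log2 fold change was 0.99 with a 95% interval of 0.27 to 1.70 (adjusted p = 0.0659). Without DKO replicate 3 it passed the 3 criteria (log2 fold change 1.23, adjusted p = 0.0434), which made 2 members called. Hist2h2be, an H2B variant known from olfactory neurons, lies at chr3:96221119-96223738 on the plus strand. It was at 243, 219 and 209.9 in TKO and at 258, 271 and 188 in DKO. DKO replicate 3 was the lowest and the other DKO retinae the highest, so that the groups overlapped, and the 95% interval of the log2 fold change, -0.46 to 0.27 around -0.092, held no change of the size seen in Hist1h2bc (adjusted p = 0.726). Hist3h2ba, at chr11:58948920-58949533 on the plus strand, was at 204, 264 and 198 in TKO and at 149, 231 and 216 in DKO, also with overlap (0.16, 95% interval -0.29 to 0.61, adjusted p = 0.606). Hist2h2bb had 13, 10 and 26 raw counts against 3, 7 and 19 (1.14, adjusted p = 0.258; 0.57 without TKO replicate 3 and 2.03 without DKO replicate 3), and every 100-base stretch of its short model occurs in another transcript. Hist3h2bb-ps, annotated as a pseudogene, had a log2 fold change of 0.16 (adjusted p = 0.871). The 7 H2B members summed to 894, 922 and 866 normalized counts in TKO and 620.2, 756 and 733 in DKO, without overlap and with a ratio of 1.27. These sums include Hist1h2bc, so they are not separate from its change.

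**Figure D3:**
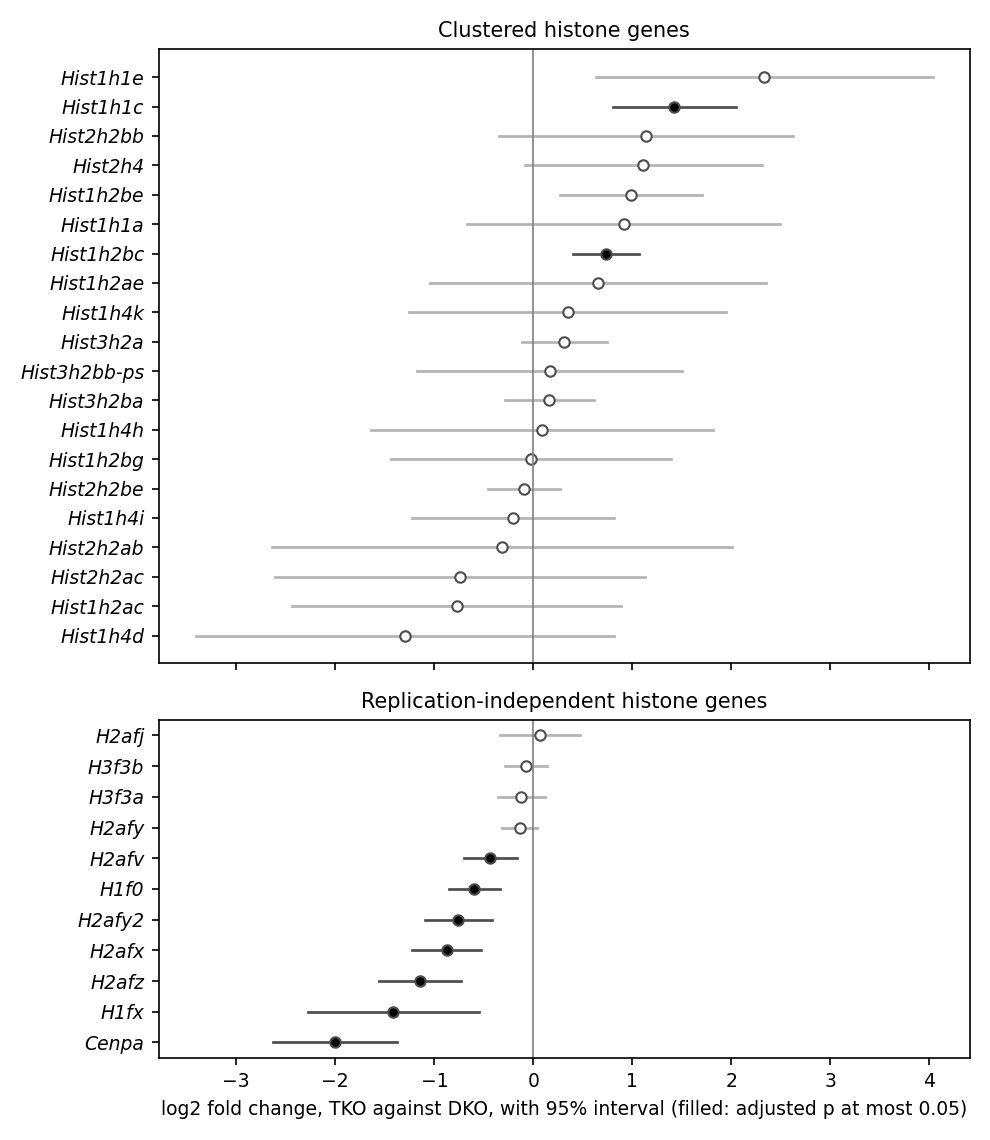
Log2 fold change of TKO against DKO (horizontal axis) with its 95% interval for the 20 clustered histone genes (upper panel) and 11 replication-independent histone genes (lower panel); filled points had an adjusted p of at most 0.05. The 2 filled points of the upper panel, Hist1h1c and Hist1h2bc, lie above 0, and the 7 filled points of the lower panel lie below 0.

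None of the 5 H2A members passed the threshold, and at an unadjusted p under 0.05 the counts were also 0 higher and 0 lower. Hist3h2a, the most counted clustered histone gene, was at 345, 413 and 349 in TKO and at 216, 306 and 368 in DKO. DKO replicate 3 lay among the TKO retinae, and the log2 fold change was 0.31 with a 95% interval of -0.12 to 0.74 (adjusted p = 0.280). The gene, at chr11:58954685-58956830 on the plus strand, overlaps an exon of Trim17 on the same strand. Trim17 was at 263, 101 and 190 in TKO and at 90.3, 93.7 and 103 in DKO, with overlap (log2 fold change 0.95, adjusted p = 0.0700). Its part in the counts of Hist3h2a was not tested. Of the 100-base stretches of its transcript, 29.8% also occur in transcripts of Trim17 or Gm44313, so its counts are less certain too. The other 4 members held 13 to 19 counts each in all. Their log2 fold changes were 0.66 in Hist1h2ae (adjusted p = 0.576), -0.31 in Hist2h2ab (0.857), -0.74 in Hist2h2ac (0.566) and -0.77 in Hist1h2ac (0.507), with overlapping groups in each. Summed over the 5 members, H2A stood at 355, 421 and 358 against 229.6, 319.6 and 376 normalized counts, a ratio of 1.23 in which Hist3h2a made up nearly all counts.

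The H4 and H3 genes were near the limit of what these libraries could count. Hist1h4i, the most counted H4 gene, had 9.17, 20.0 and 20.9 normalized counts in TKO and 12.2, 16.6 and 28.5 in DKO (log2 fold change -0.20, 95% interval -1.22 to 0.82, adjusted p = 0.788). Hist2h4 had 17.2, 11.6 and 6.14 against 4.71, 3.50 and 7.77 (1.11, 95% interval -0.09 to 2.31, adjusted p = 0.177). In both genes the groups overlapped. Hist1h4k (0.35, adjusted p = 0.765) and Hist1h4d (-1.30, adjusted p = 0.361, at 0 in TKO replicate 1) held 32 and 13 counts in all, and Hist1h4h, at 11 counts, had a log2 fold change of 0.086 (adjusted p = 0.953). The counts of the 12 H3 rows of the pattern summed to 3, 4 and 8 in the TKO and to 4, 7 and 7 in the DKO retinae, and the largest sum was 7, in Hist2h3b. The 1 row of the Hist4 locus, Hist4h4, held 1 count in all. A change in the clustered H3 genes was not detectable at counts this low. The parts of depth and of the selection for poly(A) tails in these low counts were not tested.

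By locus, the median log2 fold change was 0.50 over the 12 Hist1 members, which include both genes that rose, -0.092 over the 5 Hist2 members and 0.16 over the 3 Hist3 members. The 12 Hist1 members summed to 662, 638 and 574 normalized counts in TKO against 293, 319.6 and 432 in DKO, and the 5 Hist2 members to 281, 245 and 250.3 against 273, 291 and 213. The Hist1 sums did not overlap and the Hist2 sums did, but most Hist1 counts were those of Hist1h1c and Hist1h2bc. Without these 2 genes the other 18 members of all loci summed to 933, 1024 and 885 in TKO. In DKO they summed to 690, 889 and 890, with overlap and a ratio of means of 1.15. Histone genes often lie head to head, an H2A and an H2B gene sharing the stretch between their starts. There were 13 pairs with starts within 500 bases of each other, and in 4 of them both genes were members. In 3 of these 4 pairs the counts of the partners lay far apart. Hist1h2ac held 13 counts and Hist1h2bc 1767, across 250 bases. Hist2h2ac held 19 and Hist2h2be 1392, across 238 bases. Hist3h2bb-ps held 32 and Hist3h2a 1983, across 172 bases. In the fourth pair, Hist1h2ae with 18 and Hist1h2bg with 32 counts, 175 bases lay between the starts. In each of the other 9 pairs both genes held at most 8 counts.

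The stretch between Hist1h2ac and Hist1h2bc is printed because Hist1h2bc, on its right, rose and its partner was hardly counted. It is read on the plus strand of GRCm38.p6, from RefSeq, with the TATA, CCAAT and octamer matches of either strand in capitals.
Hist1h2ac and Hist1h2bc, chr13:23683960-23684198: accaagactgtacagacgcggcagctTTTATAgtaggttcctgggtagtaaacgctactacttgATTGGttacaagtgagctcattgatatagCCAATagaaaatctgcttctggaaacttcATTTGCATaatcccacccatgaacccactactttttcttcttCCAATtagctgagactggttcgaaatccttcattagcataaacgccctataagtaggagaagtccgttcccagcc
The 239 bases held 1 TATAAA, 3 CCAAT boxes and 1 octamer. Hist1h2ac lies to the left on the minus strand, with a log2 fold change of -0.77 and a 95% interval of -2.43 to 0.89, and Hist1h2bc to the right on the plus strand, with 0.74. The TATAAA match stands on the minus strand, towards Hist1h2ac. Only these exact letters were searched, so that similar ones, such as the tataag near the right end, are not marked. The intervals of the 2 genes overlap, and their difference was not tested.

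The replication-independent histone genes were taken as a list of 11 histone genes outside the clusters. The name does not mean that their levels are independent of cell division, which these libraries do not show for any of them. Of these, 7 were lower in TKO at an adjusted p of at most 0.05 and 0 higher, beside 9.20% and 7.35% of all genes. By the 3 criteria 3 were called lower, beside 4.38%, and the median log2 fold change was -0.60, beside -0.011. H2afz, the H2A.Z gene, was at 936, 1169 and 1366 in TKO and at 2885, 2855 and 1949 in DKO (log2 fold change -1.15, adjusted p = 0.00821). Cenpa, the centromeric H3 variant, was at 32.1, 29.5 and 47.9 against 179, 154 and 106 (-2.01, adjusted p = 0.00691). In both genes the groups did not overlap, and H1fx, a linker histone, was the third call (-1.41, adjusted p = 0.0381). The call of H1fx was lost when TKO replicate 2 (adjusted p = 0.0656), DKO replicate 1 (0.107) or DKO replicate 2 (0.122) was left out. H1f0, the linker histone of differentiated cells, fell by 0.60 on the log2 scale, and H2afx, H2afy2 and H2afv fell by 0.88, 0.76 and 0.43. H3f3b and H3f3a, which encode H3.3 and were by far the most counted histone genes, had log2 fold changes of -0.074 (adjusted p = 0.621) and -0.12 (adjusted p = 0.455). The 11 genes summed to 23586, 25061 and 23412 normalized counts in TKO and 28854, 28850 and 27983 in DKO, so that the 20 clustered members, at 1500, 1566 and 1373 against 934, 1155 and 1234, were a small part of the histone mRNA counted.

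Genes that make, process and carry histones were taken as a list of 17, of which 5 were lower and called by the 3 criteria (4.38% of all genes) and 0 higher, with a median log2 fold change of -0.18. The 5 were Slbp, the stem-loop binding protein (-1.18, adjusted p = 0.00821), the chaperones Nasp (-1.37, adjusted p = 0.0103, but 0.0511 without TKO replicate 2) and Asf1b (-1.49, adjusted p = 0.0217), and the CAF-1 subunits Chaf1a (-1.14, adjusted p = 0.00706) and Chaf1b (-2.40, adjusted p = 0.00766). Slbp itself was at 331, 417 and 493 in TKO and at 1087, 1025 and 709.7 in DKO, without overlap. Npat, the coactivator of histone gene transcription, was at 586, 483 and 507 against 626, 499 and 489 (-0.034, 95% interval -0.32 to 0.26, adjusted p = 0.878), with overlap, and Sympk, the scaffold of the cleavage complex, had 0.16 (adjusted p = 0.160). The S phase list of 21 genes was lower in 21 of 21 at an adjusted p of at most 0.05, of which 19 were called, with a median of -1.30 and a range of -2.46 to -0.88. Among them Pcna, the replication clamp, had a log2 fold change of -1.27 (adjusted p = 0.00821), Mcm3, a helicase subunit, -1.91 (adjusted p = 0.00833), and Rrm1, a subunit of ribonucleotide reductase, -1.30 (adjusted p = 0.00603).

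The levels of some cell type markers moved with the genotype beside these values, and those of others hardly did. Markers are counted here as higher or lower at an adjusted p of at most 0.05, which 7.35% and 9.20% of all genes passed. The 8 dividing-cell markers were lower in 8 of 8, and summed to 451, 844 and 1890 normalized counts in TKO and to 10055, 7327 and 4661 in DKO. The 7 rod photoreceptor markers were higher in 7 of 7, and summed to 651423, 554847 and 317331 against 111206, 108095 and 206118, which marks the tissue as retina in all 6 libraries. In both lists, and in the S phase genes, TKO replicate 3 and DKO replicate 3 lay nearest to each other, as they did in Hist1h1c. The part of the marker levels in the values of Hist1h1c and Hist1h2bc was not tested. Müller glia markers were higher in 2 of 4, with a log2 fold change above 0 in 3. They summed to 41478 to 50141 in TKO and 24595 to 27231 in DKO. Pigment epithelium markers were higher in 2 of 6, with 5 above 0, at 7567 to 9987 against 4436 to 5932. Rlbp1 is in both of these lists and made up most of the pigment epithelium sums, at 6951 to 8980 in TKO and 4292 to 5120 in DKO. The 2 pigment epithelium markers that passed were Rlbp1 and Rpe65. Ttr, the next most counted of them, overlapped between the groups, at 281 to 1417 against 53.6 to 549. Cone markers were higher in 2 of 5, with 5 above 0, at 5445 to 15058 against 3778 to 6167, with overlap. Bipolar markers were higher in 1 of 5 (median log2 fold change 0.14), amacrine markers in 0 of 4 (-0.095) and ganglion cell markers in 0 of 4 (0.17). No bipolar, amacrine or ganglion cell marker was lower. Microglia markers were lower in 4 of 7, with 6 below 0, at 1445 to 2419 in TKO and 2599.7 to 4093 in DKO. Lens markers were higher in 3 of 8, with 8 above 0. They stood at 3050.1 in TKO replicate 2, at 563 and 479.8 in the other TKO retinae and at 104 to 109 in DKO. Without TKO replicate 2 the log2 fold changes of Hist1h1c and Hist1h2bc were 1.35 (adjusted p = 0.0585) and 0.75 (adjusted p = 0.0590). The lens sums of the TKO retinae left in that fit still lay above all DKO retinae. The part of lens in the histone values was not tested. The plot of summed levels sets the histone classes beside these lists.

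**Figure D4:**
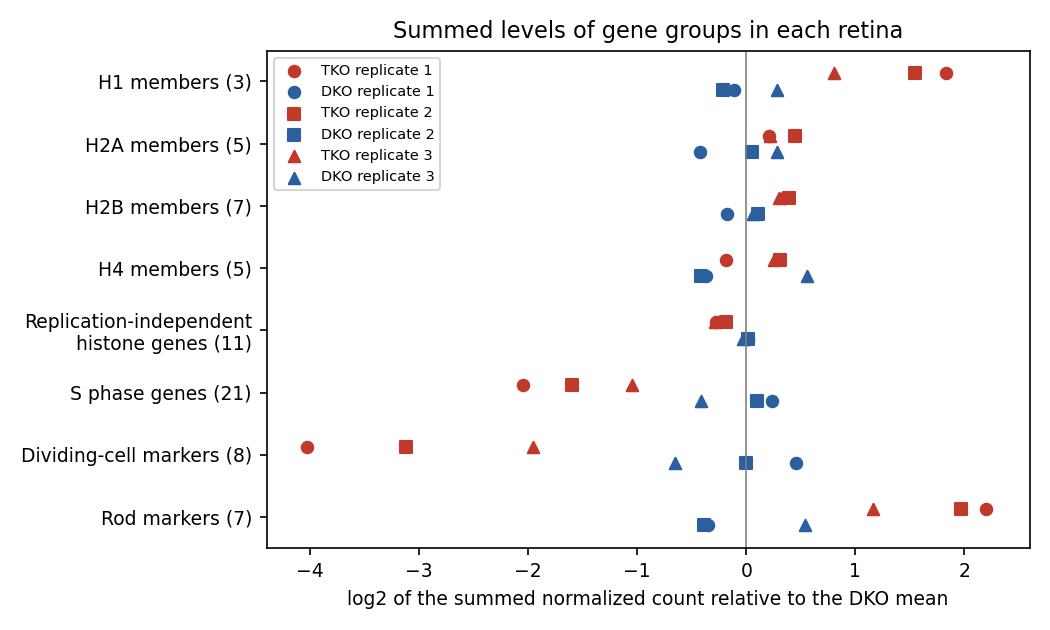
Summed normalized count of each gene group in each retina, as the log2 ratio to the DKO mean (horizontal axis), for 3 TKO (red) and 3 DKO (blue) retinae, with the number of genes in parentheses and the symbol shape giving the replicate number. The H1 sums of TKO lie between 0.80 and 1.83 and the S phase sums between -2.05 and -1.05, on opposite sides of all DKO points.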

How the data were processed

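RNA-seq counts of 6 P21 retinae, 3 TKO and 3 DKO, were used, with genotypes taken from the labels. The deposited values are raw counts per gene symbol, which the authors made, by the study's methods, from paired-end reads of stranded poly(A) libraries aligned to GRCm38 (ENSEMBL annotation) with STAR, at most 3 alignments per read, and counted with HTSeq. The submitters' processing notes name TopHat2, featureCounts and DESeq2 instead, and the builds mm10 and GRCm38. The strand setting of the counting is not given in the sources used here. Copies with near-identical sequence and overlapping genes are therefore less certain.

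Genes with a sum under 10 were removed, which left 16904 of 24062. The quasi-likelihood F test of edgeR 4.0.16 was run in R 4.3.3 after TMM scaling, with Benjamini-Hochberg adjustment over all genes tested, and the mean of the call used DESeq2 1.42.0 size factors. The criteria of a call and the minimum sum follow the study's methods. The SE was derived from the log2 fold change and F, as their ratio after taking the root of F. The test was run on simulated data first. The limit of 3 counts covers counting error only. No 2 retinae of a group agreed within sampling noise (chi-square over its degrees of freedom, 8.61 to 25.3), so all 6 were kept.

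The members and gene lists were chosen with earlier results of these data known. Named genes were Hells, Rb1 and Rbl1, the 4 most counted and the 4 smallest adjusted p of each class, the Hist3 and Hist4 rows, and of each list the 4 called genes with the smallest adjusted p and the 2 most counted. A gene that this rule names is not reported here. Hist1h4h, Hist1h2bg, Asf1b, H1f0, H2afx, H2afy2, H2afv, Trim17, the single marker genes and the rows named at the minimum were named after their values were seen. Transcripts came from GENCODE M21, which is not the authors' release, and matched all 68 rows. Promoters came from RefSeq GRCm38.p6. Tried as alternatives were 3 other scalings, 3 other filters, DESeq2, robust dispersion, the replicate number as a block, other thresholds and each retina left out in turn.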

Additional observations from a re-analysis of the deposited data

How the results depend on the processing

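The count of members called lower was 0 under every alternative run. The count called higher, 1, became 2 at an adjusted p of at most 0.05 alone (Hist1h1c and Hist1h2bc), 0 at an adjusted p of at most 0.01, and 0 to 2 with 1 retina left out: 0 without TKO replicate 2, DKO replicate 1 or DKO replicate 2, and 2 without DKO replicate 3. The median log2 fold change of 0.24 was 0.52 with filterByExpr and 0.52 with a mean of at least 10 counts, where 8 members remained, and 0.17 to 0.50 with 1 retina left out. Scaling by total counts alone shifted the median of all genes from -0.011 to -0.17 and the share of lower among called genes from 69.0% to 79.9%, and gave the members a median of 0.079. The labels do not say whether the replicate numbers pair the retinae. The correlations of deviations between retinae of the same replicate number were 0.046, -0.044 and -0.14. With so few retinae per group these cannot exclude a pairing. With the number as a block, 0 members were called higher or lower, the adjusted p was 0.0667 in Hist1h1c and 0.0573 in Hist1h2bc, and 90 genes of the table were called, against 1074. Over 15 alternatives the adjusted p of Hist1h1c ran from 3.87e-05 to 0.0667 and that of Hist1h2bc from 0.000345 to 0.0668, and 11 passed in each.

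The genes whose sign turned did not pass the threshold in either setting, and with 1 retina left out they ranged as follows. The log2 fold change of Hist1h4i was lowest at -0.43, and turned to 0.088 without TKO replicate 1 and to 0.20 without DKO replicate 3. That of Hist1h4k ran from -0.042 (without DKO replicate 2) to 1.12, that of Hist2h2be from -0.24 to 0.0068 (without DKO replicate 2), that of Hist3h2ba from -0.0088 (without DKO replicate 1) to 0.28. That of Hist3h2bb-ps ran from -0.16 (without TKO replicate 1), with -0.10 without DKO replicate 1, to 0.50, and that of Rbl1 from -0.15 (without TKO replicate 1), with -0.0016 without DKO replicate 1, to 0.36. With total counts only, the value was -0.036 in Rbl1 and -0.00076 in Sympk. The causes were not tested. Of 496 alternatives of single genes, 453 kept their direction and side of the threshold. The class sums have no test. In 49 of their 50 alternatives they moved by less than the SD of the retinae, but 5 of these changed sign, with the H3 sum at -0.47 and -0.064 and the H4 sum at -0.033, -0.056 and -0.059 on the log2 scale. Low counts limit what can be said of the 12 members with a mean under 10 normalized counts and of the 48 rows under the minimum.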
